A study of Mus musculus with 51 samples.

Results

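Wild-type common lymphoid progenitors (CLP) were compared with wild-type haematopoietic stem cells (HSC). The 13 samples were those titled wild-type CLP, 8 replicates, and wild-type HSC, 5 replicates, out of 51 arrays in the series, which held 43 replicates once repeat runs were averaged. The series profiled 4 blood-forming populations of mouse bone marrow, CLP, HSC, granulocyte-macrophage progenitors (GMP) and common myeloid progenitors (CMP), from wild-type mice and from Mll-AF9 knock-in mice, which carry a leukaemia fusion of Kmt2a (Mll) with Mllt3 (Af9). All cells were sorted by flow cytometry from whole marrow and taken directly into extraction buffer, and the RNA was amplified in 2 labelling cycles before hybridisation to Affymetrix arrays, per the labels' protocols. The stated aim of the series was to compare genotypes, so CLP against HSC is a comparison between its wild-type arms. Groups were taken from the titles; the source name of CLP replicate 1 is that of CMP. The labels used here give no sorting antibodies, strain, age, sex, or number of mice per sample. Nor do they say that each replicate is a different animal, and the p-values below therefore reflect only how much these arrays varied, part of which may be technical.

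HSC sit at the top of the blood hierarchy and can renew themselves or give rise to every blood lineage, and CLP are a later stage whose descendants are mainly B, T and NK cells. On the way, cells acquire the receptor tyrosine kinase Flt3 and then the interleukin 7 receptor Il7r, open the recombination genes Rag1 and Rag2 and the terminal transferase Dntt, and begin to transcribe early B-lineage genes under the factors Tcf3 (E2A), Ebf1 and Foxo1. Stem cells are marked instead by factors such as Mecom, Hlf, Meis1 and Hoxa9 and by the surface protein Procr. Il7r, Kit and Flt3 are surface markers commonly used to sort CLP. Where Il7r was part of the gate, its difference describes the sort; the gate is not given in the sources used here.

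Values are log2 RMA intensities, 1 probe set per gene for 18193 genes, and levels below 4.46 were taken as background. Differences are CLP minus HSC on the log2 scale, and errors after ± are the SD over replicates for levels and the moderated standard error of limma for differences. A gene was called where limma's Benjamini-Hochberg adjusted p over all genes was below 0.05. An unadjusted p below 0.05 is named as such. In sorted bulk samples, fewer cells that hold a transcript and less transcript per cell cannot be told apart.

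The label of HSC was checked against stem cell and lymphoid markers, and most of these overlapped between the 2 groups. Of the markers given here, Dntt, Il7r, Rag1 and Ccr9 did not overlap, and Hlf and Hoxa9, given with their lists below, had intervals below 0. Mecom, a zinc finger factor needed for stem cell maintenance, ranged from 6.60 over a median of 8.61 to 9.32 in the 8 CLP, against 9.69, 9.27, 8.18, 8.98 and 7.76 in the 5 HSC, while GMP averaged 4.09 ± 0.57 (SD, n = 5). The CLP and HSC values of Mecom overlapped almost throughout, and the difference was -0.36 (95% interval -1.20 to 0.49). Procr, the endothelial protein C receptor, averaged 8.58 ± 0.71 in CLP and 8.56 ± 0.86 in HSC, against 5.18 ± 0.05 in GMP, with an interval of -0.78 to 0.80 for CLP minus HSC. Meis1, a homeodomain partner of the Hox proteins, averaged 9.56 ± 0.69 in CLP, 9.81 ± 0.45 in HSC and 6.66 ± 0.18 in GMP. For these 3 genes the 95% interval of CLP minus HSC included 0, and both groups stood well above GMP.

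The converse held for the lymphoid transcripts Dntt, Flt3 and Ighm in the samples titled HSC, but not for all lymphoid genes. Dntt, which adds untemplated nucleotides at V(D)J junctions, lay between 12.03 and 12.75 in CLP with a median of 12.29, against 11.81, 12.02, 11.96, 10.90 and 11.29 in HSC, and at 5.76 ± 0.45 in GMP. The lowest CLP was just above the highest HSC, and the difference of 0.71 ± 0.18 was not called (limma adjusted p = 0.285). Its other probe sets, above background in both groups, differed more, by 1.18 (10.16 in CLP and 8.97 in HSC) and 1.09 (8.27 and 7.18). Neither was called when each probe set was fitted on its own (limma adjusted p = 0.298 for each). Flt3 averaged 10.05 ± 0.31 in CLP and 9.86 ± 0.59 in HSC, against 7.13 ± 0.33 in GMP, with an interval of -0.29 to 0.67. Ighm, the mu heavy chain whose sterile transcripts precede rearrangement, averaged 14.09 ± 0.17 in CLP, 13.84 ± 0.76 in HSC and 10.43 ± 0.44 in GMP. Kit, the stem cell factor receptor, averaged 8.47 ± 0.81 in CLP and 8.54 ± 0.20 in HSC, with an interval of -0.77 to 0.62. Other lymphoid genes, Il7r, Rag1 and Ccr9, were lower in HSC, with means of 5.05, 3.28 and 5.01 against 9.54, 6.82 and 8.24 in CLP. Because Mecom, Procr, Meis1, Dntt, Flt3 and Ighm are high in both groups, the groups are called here by their titles. No purity is assigned to either.

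Several CLP samples stood apart from the rest. The SD over genes of the difference between a pair of samples, used as a distance, had a median of 0.72 among CLP, 0.66 among HSC and 0.72 between the groups. The mean distance to the own group was smaller than that to the other group in 12 of 13 samples and larger in CLP 8. CLP 8 was nearer to an HSC than to any CLP (0.541 to HSC 4, against 0.545 to CLP 2), and HSC 2 was likewise nearer to CLP 8 (0.626) than to any HSC (0.632 to HSC 4). CLP 1, 2 and 3 lay within 0.374 to 0.436 of each other. These distances were inside the range of 0.297 to 0.564 between repeat runs of the same CMP replicate (8 pairs). For 1 immunoglobulin kappa V segment (3.29, 3.03 and 9.35), CLP 3 differed from CLP 1 and 2. CLP 6 and 7 were nearest to each other (0.721) and carried high mast cell and Il6 transcripts, and CLP 6 also high late neutrophil transcripts, given below. Results are therefore also given without CLP 6 and 7, and without CLP 2 and 3.

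Across all genes the 2 populations differed little. Of 18193 genes, 8 were higher in CLP (0.044%) and 0 were lower (0%), by limma at an adjusted p below 0.05, while 681 higher (3.74%) and 569 lower (3.13%) had an unadjusted p below 0.05. The values of 44 genes lay entirely above (0.242%) and those of 25 entirely below (0.137%) the other group. The median absolute difference was 0.14, less than the median SD of 0.33 among CLP or 0.30 among HSC. Of 10766 genes above background in either group, 8910 (82.76%) had a 95% interval that lay within 1 log2 unit of 0. Between CLP and GMP, a fit with 8 and 5 samples, 2514 genes were higher (13.8%) and 4620 lower (25.4%), and between HSC and GMP, 2447 were higher (13.5%) and 4052 lower (22.3%), where both comparisons share the GMP samples.

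Il7r, the receptor chain for interleukin 7 that supports lymphoid survival and growth, showed the largest difference of the 8 called genes. It ranged from 7.16 over a median of 9.88 to 10.94 in CLP, against 4.72, 5.14, 5.20, 4.69 and 5.52 in HSC. Every CLP was above every HSC, and the lowest CLP was replicate 8. The difference was 4.49 ± 0.48, a 22.5-fold higher level (limma adjusted p = 0.000338), and a further probe set, below background in HSC (3.07), differed by 3.20 and was not called when each probe set was fitted on its own (adjusted p = 0.100). In GMP Il7r averaged 3.60 ± 0.24, below background.

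Rag1, the catalytic subunit of the V(D)J recombinase, ranged from 3.95 over a median of 7.54 to 8.09 in CLP, against 3.32, 3.11, 3.44, 3.19 and 3.35 in HSC. All 5 HSC and also CLP 8 lay below background. The difference was 3.54 ± 0.55, at least 5.13-fold when the HSC values are raised to background (limma adjusted p = 0.0166). Its partner Rag2 averaged 5.69 in CLP and 4.76 in HSC, and its difference of 0.92 ± 0.31 was not called (adjusted p = 0.524), with overlapping values.

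The called B-lineage genes both act at or around the pre-B cell receptor. Vpreb1, a chain of the surrogate light chain, ranged from 4.88 over a median of 8.09 to 9.71 in CLP, against 3.16, 4.65, 5.00, 4.24 and 4.45 in HSC. The groups overlapped through CLP 8 alone, and every other CLP was at 7.75 or above. The difference was 3.88 ± 0.61, at least 11.9-fold (limma adjusted p = 0.0177). Blnk, the adaptor that links Syk to downstream signalling, ranged from 7.00 over 8.21 to 9.47 in CLP, against 6.22, 4.85, 4.91, 5.46 and 5.48 in HSC, without overlap, and differed by 2.82 ± 0.39, or 7.07-fold (adjusted p = 0.00538). Near-identical copies such as Vpreb2 can share probes with Vpreb1.

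The other called genes are expressed in T cells or in lymphocytes more widely. Trbv1, a T cell receptor beta-chain V segment, ranged from 4.70 over 6.21 to 7.14 in CLP, against 3.74, 3.30, 3.31, 2.73 and 2.96 in HSC, a difference of 2.88 ± 0.37 and at least 3.10-fold (limma adjusted p = 0.00277). All HSC values of Trbv1 were below background, its probe set is of a kind that can also bind related transcripts, and its other probe set was below background in both groups with a difference of -0.01. Gimap4, a GTPase of lymphocytes, ranged from 6.55 over 6.87 to 7.79 in CLP, against 4.38, 4.55, 4.65, 4.84 and 4.37 in HSC. It had the smallest spread among CLP of the called genes, 0.44, and the smallest adjusted p, with a difference of 2.43 ± 0.22 (limma adjusted p = 7.38e-05). Its other probe set, below background in HSC, differed by 1.30 and was not called (adjusted p = 0.298).

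Maf, a leucine zipper factor of T cells and macrophages, ranged from 5.76 over 6.71 to 8.66 in CLP, against 4.53, 4.18, 4.53, 4.50 and 3.42 in HSC. The difference was 2.65 ± 0.45, at least 5.21-fold, and was the weakest of the calls (limma adjusted p = 0.0400). A further probe set of Maf differed by 2.60 and was not called (adjusted p = 0.214). Cmah, the hydroxylase that makes the sialic acid N-glycolylneuraminic acid, ranged from 7.41 over 8.63 to 9.10 in CLP, against 7.04, 6.47, 6.31, 6.07 and 5.96 in HSC. The groups did not overlap, and CLP 8 was again the lowest CLP. Cmah differed by 2.01 ± 0.31, or 4.03-fold (limma adjusted p = 0.0160), and its other probe set above background differed by 0.33 and was not called (adjusted p = 0.898).

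**Figure D1:**
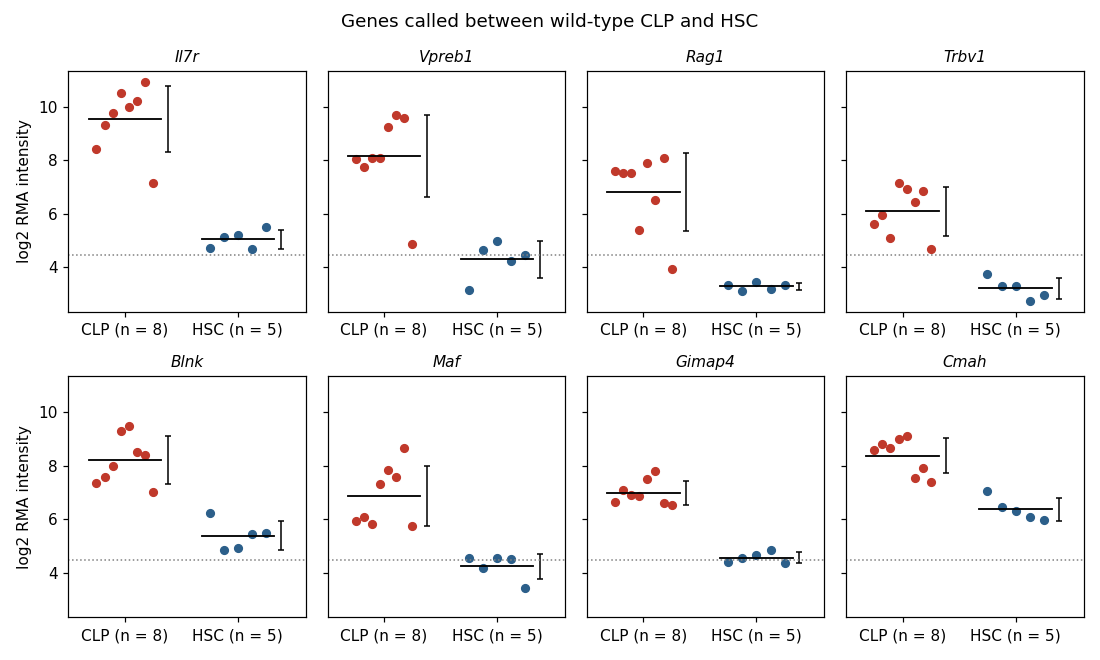
Log2 RMA intensity of the 8 called genes in each CLP (red, n = 8) and HSC (blue, n = 5), with bars for the mean, error bars for the SD and a dotted line for background. The last red point of each panel is CLP 8, which is the lowest CLP for Il7r (7.16), Vpreb1 (4.88) and Rag1 (3.95).

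The calls differed in how far they held across settings. Il7r, Blnk, Trbv1 and Gimap4 were called in all 27 alternative settings, which included leaving out each replicate, while Vpreb1 was lost in 8, Rag1 in 7, Cmah in 7 and Maf in 16. Leaving out any 1 of HSC 1 to 5 ended the calls of Vpreb1 (adjusted p 0.0522 to 0.0886) and Rag1 (0.0550 to 0.0886), and leaving out any of HSC 2 to 5 ended that of Cmah (0.0522 to 0.0886). The Rag1 difference itself stayed at 3.49 to 3.58 in these fits, against 3.54 with all samples. Maf was lost without any 1 of HSC 1 to 5 (0.0797 to 0.128) and without CLP 4, 5 or 6 (0.0860 to 0.109). Without CLP 6 and 7, all 8 genes remained called among 10. Without CLP 2 and 3, 5 of the 8 did, with Vpreb1, Rag1 and Cmah each at 0.0749.

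The sequences before the starts of the 4 called genes on the lymphoid priming and B-lineage lists are shown because these genes were higher together and because E2A, which binds E-boxes, is known to act on early lymphoid genes. They are the 250 bases before each start from RefSeq GRCm38.p6, all on the minus strand: Il7r at chr15:9529877-9530126, Rag1 at chr2:101649533-101649782, Vpreb1 at chr16:16869256-16869505 and Blnk at chr19:40994222-40994471. Capitals mark an E-box, CAGGTG or on the other strand CACCTG.
Il7r: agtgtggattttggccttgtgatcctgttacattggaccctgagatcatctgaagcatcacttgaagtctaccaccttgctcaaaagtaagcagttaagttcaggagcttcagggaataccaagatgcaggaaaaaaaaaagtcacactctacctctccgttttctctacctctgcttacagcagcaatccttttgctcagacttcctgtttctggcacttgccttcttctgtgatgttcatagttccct
Rag1: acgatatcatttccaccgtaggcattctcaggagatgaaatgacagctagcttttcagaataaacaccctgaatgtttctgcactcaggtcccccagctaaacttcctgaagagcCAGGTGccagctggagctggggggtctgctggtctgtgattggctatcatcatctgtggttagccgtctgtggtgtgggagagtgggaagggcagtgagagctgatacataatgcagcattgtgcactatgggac
Vpreb1: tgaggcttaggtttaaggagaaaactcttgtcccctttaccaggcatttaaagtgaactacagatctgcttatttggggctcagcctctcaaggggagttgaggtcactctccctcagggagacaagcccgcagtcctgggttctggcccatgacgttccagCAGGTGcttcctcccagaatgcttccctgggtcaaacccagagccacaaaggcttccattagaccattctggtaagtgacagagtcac
Blnk: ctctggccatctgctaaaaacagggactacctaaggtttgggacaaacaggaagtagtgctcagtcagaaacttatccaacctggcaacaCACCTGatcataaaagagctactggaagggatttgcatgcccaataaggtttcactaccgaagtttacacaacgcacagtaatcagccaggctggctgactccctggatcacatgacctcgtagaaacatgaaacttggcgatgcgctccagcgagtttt
This form of E-box began 135 bases before the start of Rag1, 88 before that of Vpreb1 and 160 before that of Blnk, and the Il7r window held none of this form. Over all 32851 such windows 17.22% held this form, and 11.82% held CCCNNGGG, a core associated with Ebf1 that reads the same on both strands and was in none of the 4. A match is a description of letters and not a binding site, and no binding was measured.

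The lymphoid priming list followed the same direction in most members, though few were called. Of 20 measured members, 2 were called higher (Il7r and Rag1), 9 had an unadjusted p below 0.05 and were higher and 1 lower, and the median difference was 0.40, against -0.01 over all genes. Of all genes, 0.044% were called higher, and 3.74% were higher and 3.13% lower at an unadjusted p below 0.05. These shares stand beside the counts of every list below. Ccr9, the chemokine receptor of thymus-seeding progenitors, ranged from 6.95 over 8.17 to 10.02 in CLP, against 6.63, 6.41, 5.06, 3.31 and 3.61 in HSC. No CLP value overlapped an HSC value, yet the difference of 3.23 ± 0.63 was not called (limma adjusted p = 0.118), with an SD of 1.54 among HSC. This probe set of Ccr9 is of a kind that can also bind related transcripts. Another, below background in HSC, differed by 1.73 and was not called when fitted on its own (limma adjusted p = 0.349). Those below background in both groups differed by 0.82, 0.46 and 0.17. Ly6d, whose surface level divides CLP into B-committed and uncommitted cells, averaged 5.69 in CLP and 4.52 in HSC (1.17 ± 0.25, adjusted p = 0.146). The member lowest relative to HSC was Mef2c, a factor of lymphoid and myeloid choice, with a difference of -0.41 ± 0.18.

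B-lineage genes had 2 of 22 members called (Vpreb1 and Blnk), 11 higher and 0 lower at an unadjusted p below 0.05, and a median difference of 0.50. The mean over the list was 6.14 ± 0.27 in CLP and 5.34 ± 0.10 in HSC, and in every CLP it was above every HSC. Igll1, which pairs with Vpreb1 in the surrogate light chain, ranged from 5.01 over 7.33 to 9.64 in CLP and from 4.46 to 5.20 in HSC (2.66 ± 0.55, limma adjusted p = 0.131). Ebf1, the factor that sets B-lineage fate, averaged 4.25 in CLP and 3.26 in HSC, both below background (adjusted p = 0.365), and Pax5, which locks that fate, averaged 3.91 and 4.03. Only 13 of the 22 members were above background in either group. Without CLP 8, 4 of the 22 members were called, against 12 of all 18193 genes.

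T-lineage genes had 0 of 15 members called by limma and 3 higher at an unadjusted p below 0.05, with a median of 0.17. Gata3, the factor of early T cell development, ranged from 5.08 over 5.86 to 7.78 in CLP, against 4.06, 4.78, 3.85, 3.59 and 4.73 in HSC. Its groups did not overlap, and its difference of 1.79 ± 0.38 was not called (adjusted p = 0.145). Bcl11b, needed for T commitment, ranged from 3.78 over 6.14 to 8.52 in CLP and from 2.90 to 4.56 in HSC (2.44 ± 0.64, adjusted p = 0.359). Among chains of the CD3 complex, Cd3e averaged 4.55 in CLP and 4.42 in HSC, and Cd3g averaged 2.97 in CLP and 2.80 in HSC, near or below background, unlike the called Trbv1 segment.

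Id2, an inhibitor of E proteins that is needed for NK and innate lymphoid cells, belonged to both the cytotoxic and the dendritic cell lists. It ranged from 7.81 over 8.86 to 11.04 in CLP, against 7.48, 7.25, 5.39, 6.27 and 5.67 in HSC, with CLP 4, 6 and 7 above 10. The difference was 2.84 ± 0.59 (limma adjusted p = 0.131). Apart from Id2, no member of the 13 cytotoxic genes had an unadjusted p below 0.05, and Gzma, Prf1 and Ncr1 averaged 4.30, 3.84 and 3.51 in CLP, all below background, against 4.44, 3.81 and 3.40 in HSC.

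Stem cell genes ran slightly the other way. None of 26 measured members was called, and 22 had the lower mean in CLP. At an unadjusted p below 0.05, 4 were lower in CLP and 0 higher, against 3.13% and 3.74% of all genes. The median difference was -0.28, and the mean over the list was 7.62 ± 0.32 in CLP, 7.91 ± 0.13 in HSC and 5.72 in GMP. Angpt1, the ligand of the stem cell receptor Tek, ranged from 9.06 over 9.51 to 9.75 in CLP, against 10.01, 10.47, 9.79, 10.13 and 9.94 in HSC, and was the only member whose groups did not overlap (-0.61 ± 0.16, limma adjusted p = 0.365). Hlf, a leucine zipper factor of stem cells, averaged 9.31 ± 0.63 in CLP and 10.07 ± 0.27 in HSC (-0.76 ± 0.27, adjusted p = 0.566). Without CLP 6 and 7 the list median was -0.10, and 2 members stayed below an unadjusted p of 0.05.

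Hox genes had 0 of 13 members called and 2 lower at an unadjusted p below 0.05 (3.13% of all genes). Hoxa7 ranged from 5.48 over 5.73 to 6.17 in CLP, against 6.27, 6.81, 6.47, 6.27 and 6.29 in HSC, a small difference without overlap (-0.63 ± 0.19, limma adjusted p = 0.437). Hoxa9, a target of the MLL complex, averaged 11.60 ± 0.55 in CLP and 12.17 ± 0.43 in HSC, with an interval of -1.08 to -0.05, and 9.01 ± 0.51 in GMP.

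**Figure D2:**
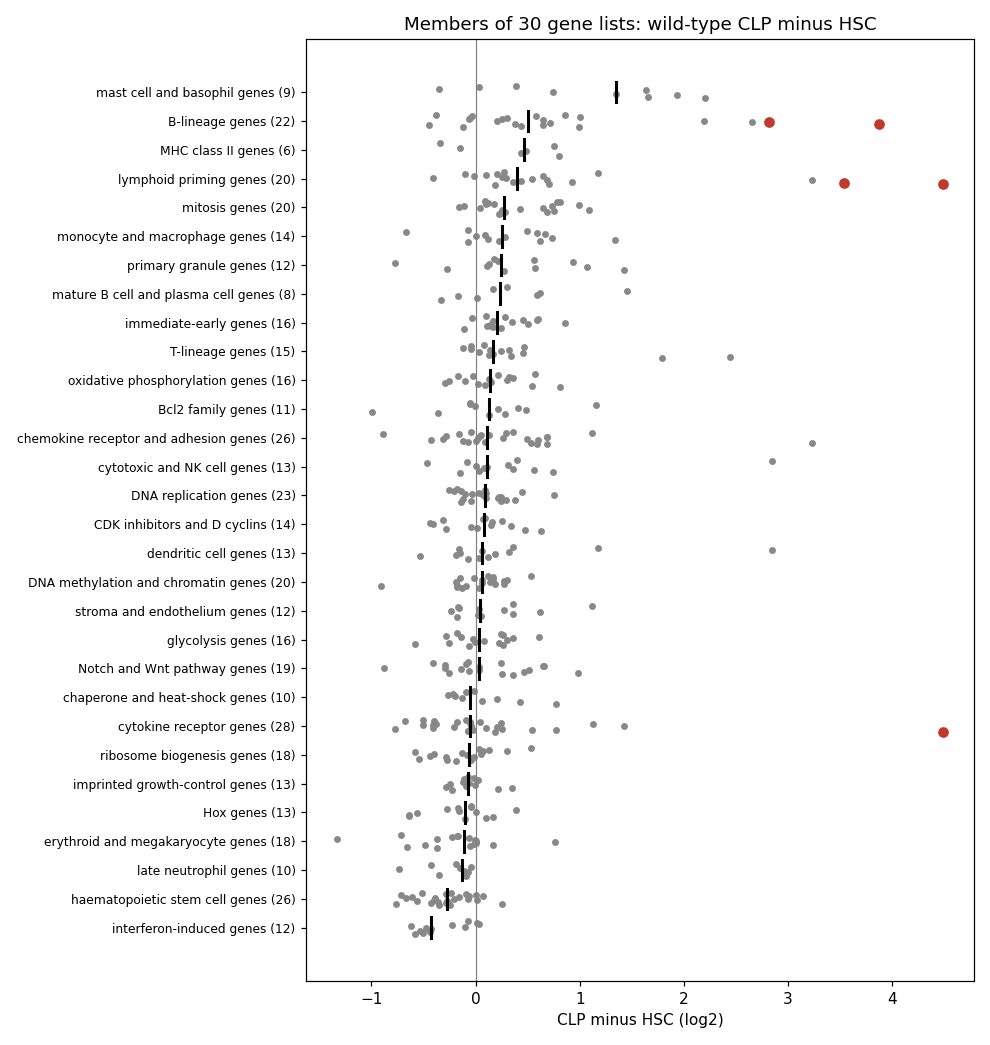
CLP minus HSC difference (log2) of each measured member of 30 gene lists (number measured in brackets), called genes in red, other genes in grey, and list medians as black bars. The called genes lie on the lymphoid priming, B-lineage and cytokine receptor lists, and the largest median, 1.35, is that of the mast cell and basophil genes.

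Mast cell and basophil genes had the largest median of the lists, 1.35, and 0 of 9 members called. At an unadjusted p below 0.05, 5 were higher and 1 lower, against 3.74% and 3.13% of all genes. The mean over these 9 genes was 8.39 in CLP 6 and 9.16 in CLP 7, and between 6.27 and 7.11 in the other CLP, against 5.74, 6.82, 5.79, 5.54 and 6.55 in HSC. Mcpt8, a basophil protease, reached 12.42 in CLP 6 and 13.25 in CLP 7, against 8.60 to 10.53 in the other CLP and 6.40 to 11.01 in HSC. Mcpt8, Cpa3 and Ms4a2 were thus above background in all 13 samples. Without CLP 6 and 7 the list median was 0.64, with 3 members higher at an unadjusted p below 0.05 (4.67% of all genes). Their part in the difference between the groups was not tested beyond leaving these samples out.

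Neutrophil transcripts varied widely within both groups. The mean over 10 late neutrophil genes was 9.33 in CLP 6, against 3.76 to 6.39 in the other CLP and 5.05, 5.39, 5.46, 7.57 and 5.63 in HSC. S100a8, a calcium-binding protein abundant in neutrophils, ranged from 4.89 over 8.05 to 12.46 in CLP, against 7.84, 7.67, 7.17, 10.59 and 7.46 in HSC, where HSC 4 was the high sample. No member of the list was called or had an unadjusted p below 0.05, and the median difference was -0.13. It was -1.01 without CLP 6 and 7, with 2 of 10 members lower at an unadjusted p below 0.05, and -0.74 without CLP 6 alone, with 1. Primary granule genes, the earlier stage, had 0 of 12 called, and Mpo averaged 11.79 ± 1.02 in CLP and 11.51 ± 1.01 in HSC, below the 13.70 ± 0.13 of GMP. Elane, a neutrophil elastase, averaged 6.58 ± 0.88 in CLP and 5.15 ± 0.60 in HSC (1.43 ± 0.39, limma adjusted p = 0.365), against 11.05 ± 0.99 in GMP.

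**Figure D3:**
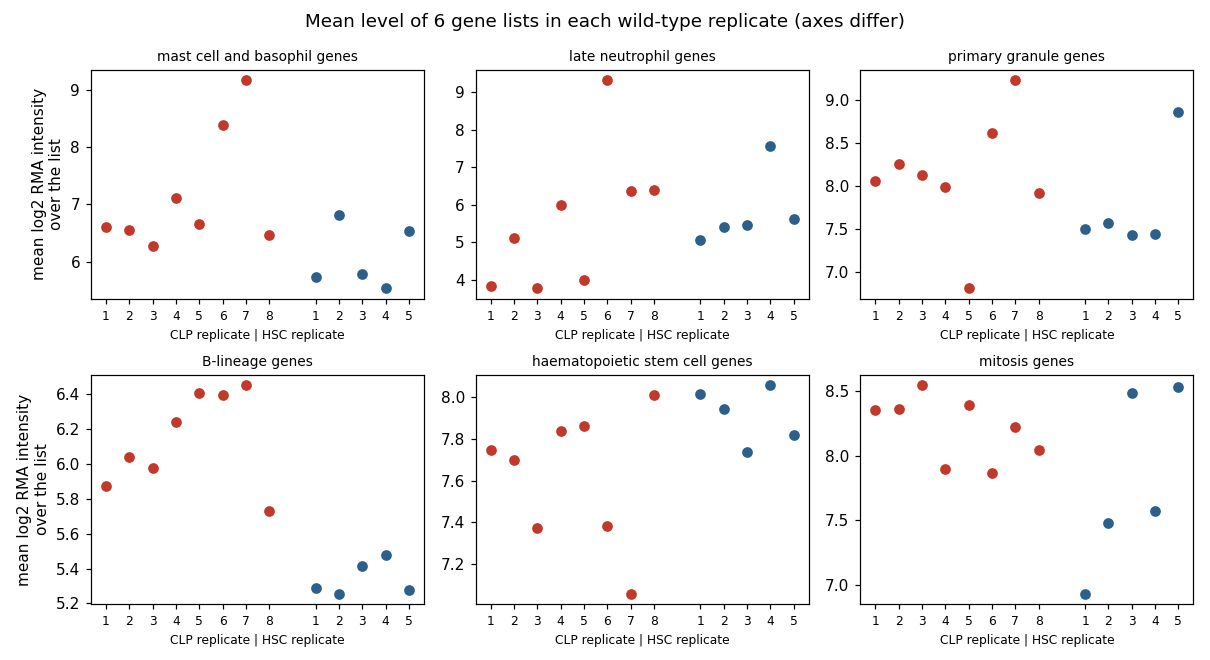
Mean log2 RMA intensity over 6 gene lists in each CLP replicate (red) and each HSC replicate (blue), each panel with its own axis. CLP 6 and 7 are high for mast cell genes (8.39 and 9.16), CLP 6 for late neutrophil genes (9.33), and every CLP is above every HSC for B-lineage genes.

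Of the receptors for cytokines, Il7r was the one called. Of 28 measured members, 1 was called, 4 were higher and 3 lower at an unadjusted p below 0.05, and the median difference was -0.05. Il2ra, the alpha chain of the interleukin 2 receptor, averaged 4.48 in CLP and 3.05 in HSC (1.43 ± 0.41, limma adjusted p = 0.400), and Csf3r, the receptor for granulocyte colony-stimulating factor, averaged 7.25 in CLP and 8.02 in HSC (-0.77 ± 0.27, adjusted p = 0.561). Crlf2, the receptor for thymic stromal lymphopoietin, averaged 9.65 in CLP and 10.16 in HSC.

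Mitosis genes varied widely among HSC. None of 20 mitosis genes was called by limma, 6 were higher and 0 lower at an unadjusted p below 0.05 (3.74% and 3.13% of all genes), 18 had the higher mean in CLP and the median was 0.27. The mean over the list lay between 7.86 and 8.54 in CLP, against 6.93, 7.48, 8.48, 7.57 and 8.53 in HSC, so HSC 3 and 5 were at the level of the highest CLP. Kif20a, a kinesin of cytokinesis, averaged 7.15 ± 0.53 in CLP and 6.16 ± 0.90 in HSC (0.99 ± 0.35, limma adjusted p = 0.566). DNA replication genes had 0 of 23 called, 3 higher at an unadjusted p below 0.05, a median of 0.09 and 14 members with the higher mean in CLP against 9 with the lower. Mki67, a marker of cycling cells, averaged 11.44 in CLP and 11.22 in HSC.

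No member of the remaining lists was called, and at an unadjusted p below 0.05 each had between 0 and 4 members higher and 0 to 2 lower. Interferon-induced genes had the lowest median, -0.43 over 12 genes, with none at an unadjusted p below 0.05 and HSC 5 the highest sample at 8.44. MHC class II genes had a median of 0.46 over 6 genes, and Cd74, the invariant chain, averaged 6.86 ± 0.40 in CLP and 6.10 ± 0.31 in HSC (0.75 ± 0.22, limma adjusted p = 0.437). Erythroid and megakaryocyte genes had a median of -0.12 over 18 genes, and Klf1, an erythroid factor, averaged 7.03 ± 1.26 in CLP and 7.69 ± 0.48 in HSC. Immediate-early genes had a median of 0.20 over 16 genes with none at an unadjusted p below 0.05, and Dusp1, a phosphatase induced by stress and tissue handling, ranged from 11.77 over 12.20 to 13.23 in CLP, against 12.39, 12.26, 11.92, 12.06 and 10.74 in HSC. Among the members with the smallest p of lists without a call, Pmaip1, a pro-apoptotic Bcl2 family member, averaged 4.56 ± 0.53 in CLP and 3.40 ± 0.70 in HSC (1.16 ± 0.29, limma adjusted p = 0.305). Tfrc, the transferrin receptor, averaged 9.18 ± 0.48 in CLP and 8.42 ± 0.18 in HSC, and Ccnd2, a D-type cyclin, 10.62 ± 0.21 in CLP and 11.06 ± 0.28 in HSC. Xbp1, a factor of secretory cells, averaged 10.59 ± 0.47 in CLP and 10.01 ± 0.22 in HSC, and Slc2a1, a glucose transporter, 8.54 ± 0.48 in CLP and 7.93 ± 0.47 in HSC. Oxidative phosphorylation genes had 4 of 16 higher at an unadjusted p below 0.05, led by Ndufa4 at 9.31 ± 0.29 in CLP and 8.51 ± 0.53 in HSC (adjusted p = 0.365).

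The 10 genes above background with the largest SD among CLP describe how these samples vary among themselves. Xist, which is transcribed in female cells, and the Y-linked Eif2s3y split by sex, with Xist at 11.87 and 11.74 in CLP 4 and 8 and 3.06 to 4.63 in the others. Il6, a cytokine gene, was at 10.07 in CLP 6 and 11.07 in CLP 7, against 3.14 to 7.20 in the other CLP and 2.87 to 5.71 in HSC. Lgals3, a galectin of myeloid cells, was at 10.46 and 10.88 in the same samples, against 4.28 to 7.68 in the other CLP. S100a8, S100a9, Ngp and Chil3, all neutrophil products, were highest in CLP 6, Ngp at 12.10. An immunoglobulin kappa V segment and the X-linked Mid1 had SDs of 2.63 and 2.35 among CLP. In HSC they lay between 5.18 and 9.81 and between 9.29 and 12.30.

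The sexes were not balanced between the groups. The mean of the Y-linked genes was above 6 in 6 of 8 CLP and 2 of 5 HSC. With that mean as a covariate, Il7r, Blnk, Trbv1, Gimap4 and Rag1 remained called, and Vpreb1, Maf and Cmah had adjusted p-values of 0.0897, 0.168 and 0.0649. The difference between 3' and 5' control probe sets, which grows as RNA degrades or amplifies short, was 3.69 ± 0.21 in CLP and 3.63 ± 0.47 in HSC, and differed by 0.06 (two-sided exact permutation test, p = 0.760, 1287 arrangements). The 2 control genes it averages ran opposite ways, Actb by 0.41 (exact p = 0.221) and Gapdh by -0.29 (exact p = 0.0730).

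The same comparison in Mll-AF9 mice used separate samples, 7 CLP and 5 HSC, and called 53 genes higher (0.291%) and 7 lower (0.0385%). Of the 8 genes called in wild type, Il7r, Rag1, Trbv1, Maf and Gimap4 were also called there. Il7r differed by 6.02 ± 0.54 in Mll-AF9 (9.49 ± 1.36 in CLP and 3.47 ± 0.64 in HSC), and Rag1 by 3.07 ± 0.56 (6.26 ± 1.30 and 3.19 ± 1.01). Blnk and Vpreb1 had smaller differences, 0.94 ± 0.45 (limma adjusted p = 0.422) and 0.88 ± 0.26 (0.174), and Vpreb1 averaged 4.63 ± 0.45 in Mll-AF9 CLP, where the highest sample was at 5.26. Cmah differed by 2.18 ± 0.47 (adjusted p = 0.0576). The difference between genotypes was itself tested and passed for none of the 8, with Vpreb1 nearest at 2.99 ± 0.73, wild type minus Mll-AF9 (limma adjusted p = 0.289).

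In all, 5 genes had a CLP minus HSC difference that differed between the genotypes (0.0275% of genes), and 0 did in the opposite direction (at an unadjusted p below 0.05, 667 or 3.67% were lower and 398 or 2.19% higher in wild type). All 5 were more positive in Mll-AF9. Gzma, granzyme A of cytotoxic cells, differed by -0.15 ± 0.27 in wild type (4.30 ± 0.50 in CLP and 4.44 ± 0.58 in HSC), against 3.63 ± 0.37 in Mll-AF9 (7.76 ± 0.89 and 4.13 ± 0.35), and the change between genotypes was -3.78 ± 0.48 (limma adjusted p = 0.000219). Trgv4, a gamma-chain variable segment, differed by 1.39 ± 0.37 in wild type (4.56 in CLP and 3.17 in HSC) and 5.43 ± 0.45 in Mll-AF9 (8.98 in CLP and 3.55 in HSC), a change of -4.04 ± 0.62 (adjusted p = 0.00317). Both HSC means of Trgv4 and of Gzma, and the wild-type CLP mean of Gzma, were below background, so these sizes rest partly on values that are bounds. With HSC raised to background, Trgv4 was at least 1.07-fold higher in wild-type CLP and at least 22.9-fold higher in Mll-AF9 CLP, and Gzma at least 9.51-fold higher in Mll-AF9 CLP. The probe set of Trgv4, like that of Trbv1, is of a kind that can also bind related transcripts. In wild type the other probe sets of Trgv4 were below background in both groups and differed by -0.10 and 1.39. Klra8, an NK cell receptor, and Sh2d1a, a signalling adaptor of T and NK cells, changed by -2.34 ± 0.36 and -1.51 ± 0.28, with all 4 group means of each below background. Gm11696, a gene model, changed by -2.55 ± 0.48 (adjusted p = 0.0439). Every Mll-AF9 sample of these populations was female by Xist, 10.96 or above, and wild-type samples were of both sexes, so sex and genotype are partly mixed in this contrast. Gzma, Trgv4 and Klra8 stayed called in each alternative that was run, and Gm11696 was lost in 30 of 39 and Sh2d1a in 24 of 38.

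**Figure D4:**
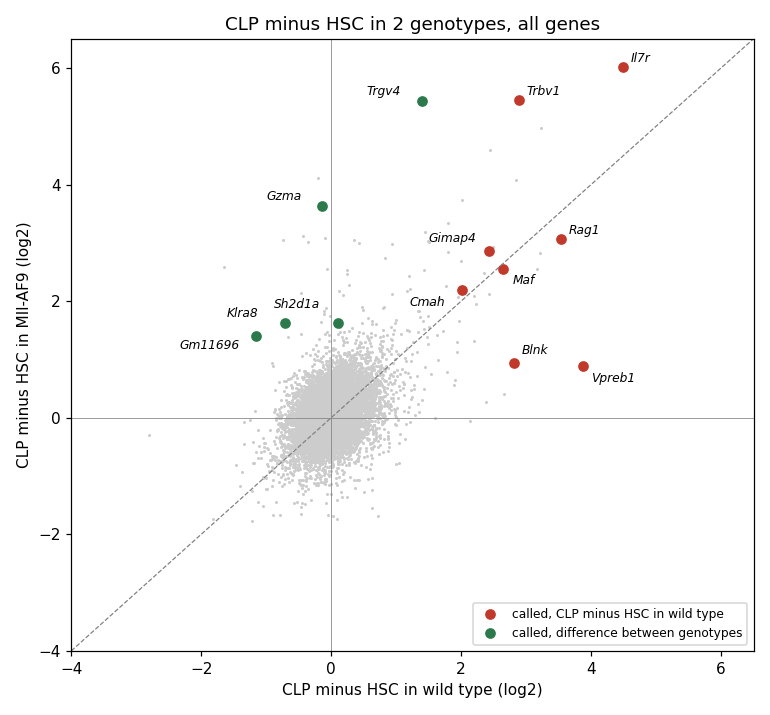
CLP minus HSC difference (log2) in wild type (x axis) and in Mll-AF9 (y axis) for all genes (grey), the 8 genes called in wild type (red) and the 5 whose difference was called between genotypes (green), with the line of equal differences dashed. Blnk and Vpreb1 lie below the line, and Gzma and Trgv4 lie above it.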

How the data were processed

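Per the submitters' processing notes, the authors used RMA, and they deposited linear intensity values for every probe set of each array. The RMA version, and any joint normalisation of the arrays, was not given in the sources used here. Here log2 of the deposited intensities was taken, and repeat runs of the same CMP replicate were averaged, for 8 CMP replicates. Of 45101 probe sets, 64 controls were dropped. In the platform annotation 34945 named 1 gene, and 10092 with several or no gene were not used. Current symbols came by gene ID from the RefSeq GRCm38.p6 table. Each gene was represented by its brightest probe set, averaged over all replicates. Background, 4.46, was the 95th percentile of the means of 112 receptor and keratin-associated genes not used by blood cells. Lower bounds of folds raise the dimmer group to it. Arrays have no read depth, and their number limits the precision.

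CLP and HSC were fitted alone, 13 samples with no block or covariate, using limma 3.58.1 under R 4.3.3 with lmFit and trended eBayes moderation. Genotypes were fitted in a model of 4 group means. Members and lists were chosen with earlier results of these data known, and lists carry no test. Genes were named by rule: called genes by size, called list members or else the member with the smallest p, genes called between genotypes, the 10 above background with the largest SD among CLP, and Il7r, Flt3, Dntt, Kit, Mpo, Klf1 and Xist. Ly6a, also on the rule, was not measured. Other members are examples chosen after their values were seen, and not every gene under the rule is printed. On simulated data of 18193 genes with 100 changed per size, the CLP against HSC fit recovered 54% at a log2 difference of 1 and 95% at 2, and the genotype contrast 23% and 79%. The simulated noise was normal and independent between samples, with the same SD in every group, and the changed genes lay above the median level. The real samples included outlying ones, so these shares do not give the power of the real fits. Replicate numbers did not pair the samples: same-numbered CLP and HSC had correlations of -0.12, -0.08, 0.21, 0.15 and -0.37. Alternatives were each replicate left out, a replicate block, normalisation, background filter, probe set choice, moderation, array weights, all 8 groups in 1 model, Y-linked level or 3' minus 5' difference as covariates, and, added after seeing the data, CLP 6 and 7 or CLP 2 and 3 left out.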

Additional observations from a re-analysis of the deposited data

Results flagged for a closer look

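Of 106 groups examined (both groups of each named gene but Xist, and of the 3' minus 5' control difference), 9 held 1 sample far from the rest. Chance gives about 1 in 20 for independent groups not picked by their values. Here 10 genes were picked for a large SD among CLP, and the neutrophil genes vary together. No excess over chance can therefore be read from the 9. In CLP these were Vpreb1 in CLP 8 (4.88, the others 7.75 to 9.71), Kif20a in CLP 4 (6.04, the others 7.05 to 7.75), Mpo in CLP 5 (9.46, the others 11.57 to 12.68) and Sh2d1a in CLP 7 (3.16, the others 2.44 to 2.75, all below background). In HSC 4 the neutrophil genes Ngp (10.53, the others 7.27 to 7.85), S100a9 (9.61, the others 6.18 to 6.40) and S100a8 (10.59, the others 7.17 to 7.84) were all high. Mfng, a glycosyltransferase that modifies Notch, was low in HSC 2 (6.90, the others 7.68 to 7.95), and Dusp1 in HSC 5 (10.74, the others 11.92 to 12.39).

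The CLP minus HSC difference differed between genotypes by limma, wild type minus Mll-AF9, for Trgv4 (-4.04), Gzma (-3.78), Gm11696 (-2.55), Klra8 (-2.34) and Sh2d1a (-1.51).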

How the results depend on the processing

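The 8 CLP against HSC calls, all higher, became 5 without the intensity trend, 5 with the Y-linked level as a covariate and 5 without CLP 2 and 3, each time 5 of the 8. Array weights gave 22 (18 higher, 4 lower) and 1 model of all 8 groups 57 (47 higher, 10 lower), both with all 8 included. Leaving out 1 replicate gave 4 to 12 calls, 4 to 12 of them higher and 0 to 1 lower, with 4 without HSC 2, 3 or 4, 5 without HSC 5 and 12 without CLP 8. The replicate block gave 12, of which 1 was lower and 7 were among the 8, but the numbers do not pair the samples. The 5 calls between genotypes, all negative, became 3 after renewed quantile normalisation, median centring, no trend, the 3' minus 5' covariate or without CLP 2 and 3, and 2 among genes above background. They became 8 with array weights (1 positive) and 26 in 1 model of all 8 groups (6 positive, 20 negative). With 1 replicate left out there were 3 to 8 (0 to 2 positive, 3 to 7 negative), the highest without wild-type CLP 8. The replicate block gave 5, with 1 positive. No called difference changed sign. The differences of 10 named genes, 0 of them called in any setting, did so in at least 1 alternative, among them Kit (-0.55 to 0.46), S100a8 (-1.54 to 0.63) and Hsp90aa1 (-0.82 to 0.36), as did the 3' minus 5' difference (-0.07 to 0.24 with 1 replicate left out). Over single genes, 92 values lost and 5 gained a call, and 18 counts of called list members changed by more than a set limit. Levels near background limit many lymphoid genes. The cause of these changes was not tested.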

Other observations

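A limma model of all 8 groups of the series, whose estimate of the spread draws on the other populations too, called 57 genes between the same CLP and HSC samples, 47 higher and 10 lower in CLP. The genes below were picked from these after their values were seen. B-lineage and lymphoid genes among them were Igll1 (2.66 ± 0.40), Pou2af1, a coactivator of immunoglobulin genes (2.20 ± 0.41), Mzb1, an endoplasmic reticulum protein of B cells (1.97 ± 0.33), Ly6d (1.17 ± 0.21), Ebf1 (1.00 ± 0.20), Blk, a Src family kinase of B cells (0.86 ± 0.18), and Cd24a (0.79 ± 0.18). Both group means of Ebf1 were below background. T and innate lymphoid genes were Bcl11b (2.44 ± 0.48), Gata3 (1.79 ± 0.33), Il17rb, a chain of the interleukin 25 receptor (2.24 ± 0.50), Thy1 (1.49 ± 0.35) and the gamma-chain segment Trgv1 (2.01 ± 0.38). Of the lists, 6 of 22 B-lineage, 4 of 20 lymphoid priming and 2 of 15 T-lineage genes were called higher. So were 2 of 13 dendritic cell, 1 of 13 cytotoxic, 1 of 28 cytokine receptor and 1 of 26 chemokine receptor and adhesion genes. No other list had a called member, with 0 of 26 stem cell genes called, and some genes are on several lists. Among all 18193 genes, 47 were called higher and 10 lower. Lower genes included Muc13, a mucin (-1.19 ± 0.28), Smad4, the common mediator of TGF-beta signalling (-1.07 ± 0.24), and Aspa (-0.80 ± 0.13).

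Among genes whose CLP and HSC values did not overlap and which were not called in the fit of the 13 samples, Gpr174, a lysophosphatidylserine receptor of lymphocytes, differed by 1.93 ± 0.34 (limma adjusted p = 0.0506). Igha, the alpha heavy chain, differed by 3.22 ± 0.85 (adjusted p = 0.365), and the class I gene H2-K1 by -0.68 ± 0.14 (adjusted p = 0.131).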
